A study of Homo sapiens with 6 samples.

Results

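Cellular iron handling was followed through 10 named genes in K562 cells, a chronic myeloid leukemia (CML) line that carries the BCR::ABL fusion and grows in suspension. The genes were chosen by name: the transferrin receptors TFRC and TFR2, the iron transporters SLC11A2 and SLC40A1, the ferrireductase STEAP3, the ferritin subunits FTH1 and FTL, the ferritin receptor NCOA4, and the iron-regulatory proteins ACO1 and IREB2. All 10 had a row among the 24960 genes of the count table, and all 10 passed the filter on low counts that left 15095 genes for testing. RNA from 3 control libraries and 3 libraries of the hyperoside (2 mM) group was sequenced. Hyperoside is a plant flavonol glycoside, and neither the duration of exposure before RNA extraction nor the solvent given to the control cells was stated for these libraries in the sources used here. All libraries came from the same cell line, and treatment was the only labelled difference between the groups. Nothing in the labels says that replicates were separate cultures, so p-values measure only the spread between these libraries, which may be technical. In such bulk samples fewer cells of one kind and less RNA per cell cannot be told apart.

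Cells take up iron mainly as transferrin bound to the transferrin receptor at the cell surface. The complex is internalized, ferric iron is reduced in the endosome by STEAP3, and ferrous iron leaves through SLC11A2 (DMT1). Iron that is not used is stored in ferritin shells built of heavy (FTH1) and light (FTL) chains, is released when NCOA4 carries ferritin to the lysosome, and is exported by ferroportin (SLC40A1). Iron-regulatory proteins, IRP1 (ACO1) and IRP2 (IREB2), bind hairpins called iron-responsive elements when iron is scarce. Binding in a 5′ untranslated region (UTR) blocks translation, as for ferritin and ferroportin, and binding in the 3′ UTR protects the TFRC transcript from decay. In the textbook account an iron-poor cell therefore holds more TFRC mRNA and an iron-rich cell less, while ferritin output changes mainly at translation, which RNA sequencing does not measure. Erythroid cells such as K562 make large amounts of transferrin receptor because they make heme.

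Iron-responsive elements were searched for in the GENCODE 29 transcripts on GRCh38, the build that the submitters' processing notes name as hg38. The search asked for a C, 5 bases, the loop CAGTGN and 5 bases that pair with the first 5, with G-U pairs allowed, in the UTRs of coding transcripts. Such an element was present in a UTR of 0.853% of 19702 protein-coding genes, and in 4 of the 10 iron genes. These 4, TFRC, FTH1, FTL and SLC40A1, are the genes named above as regulated through it. Their share follows from the choice of genes and is no test of enrichment. TFRC held 4 copies in its 3′ UTR, the first starting 944 bases and the last 1460 bases after the coding sequence, in 3 of its 4 coding transcripts. They are shown in transcript direction with the 6-base loop in capitals, because IRPs bind elements of this kind. The first 5 loop letters were fixed, so an element with another loop would have been missed. All TFRC copies lie on the minus strand, at chr3:196050979-196051007, chr3:196050575-196050603, chr3:196050510-196050538 and chr3:196050463-196050491 in the order printed.
TFRC copy 1: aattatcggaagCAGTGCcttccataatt
TFRC copy 2: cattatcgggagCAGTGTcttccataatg
TFRC copy 3: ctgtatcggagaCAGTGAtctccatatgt
TFRC copy 4: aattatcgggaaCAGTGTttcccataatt

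FTH1, FTL and SLC40A1 each held 1 copy, in the 5′ UTR, where it stands before the coding sequence. The copy in FTH1 (chr11:61967574-61967602, minus strand) was in 7 of 8 coding transcripts, that in FTL (chr19:48965335-48965363, plus strand) in its single coding transcript, and that in SLC40A1 (chr2:189580661-189580689, minus strand) in 1 of 5 coding transcripts. The SLC11A2 copy (chr12:50988269-50988297, minus strand) was found only with a looser stem, chosen after the first search, in which 1 of the 5 pairs may be missing or 1 extra base may sit in the arm after the loop. It starts 37 bases after the coding sequence in 5 of 18 coding transcripts, so SLC11A2 is made both with and without an element, and the gene-level counts sum over these forms.
FTH1: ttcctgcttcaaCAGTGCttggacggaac
FTL: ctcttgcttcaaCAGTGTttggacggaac
SLC40A1: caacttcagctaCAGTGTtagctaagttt
SLC11A2: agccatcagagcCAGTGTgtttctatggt

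The looser stem was common. It or the full element was present in a 3′ UTR of 5.28% of protein-coding genes and in a 5′ UTR of 1.80%, and it also matched once in the 3′ UTRs of ACO1 and IREB2. A match is a description of letters and not evidence that a protein binds there. TFR2, STEAP3 and NCOA4 had no match in these UTRs.

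**Figure D1:**
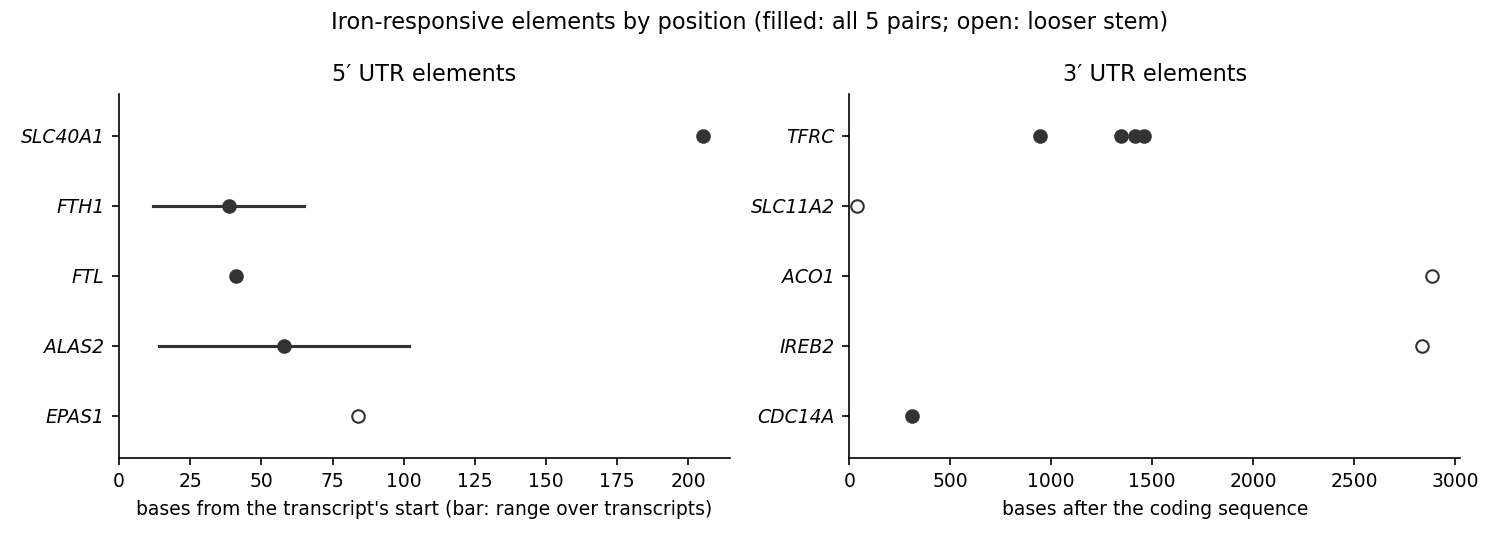
Positions of iron-responsive elements in 5′ UTRs (left, bases from the start of the transcript, with bars for the range over transcripts) and 3′ UTRs (right, bases after the coding sequence), for the iron genes and for the related transcripts ALAS2, EPAS1 and CDC14A. Filled points have all 5 stem pairs and open points the looser stem; TFRC is the only gene with 4 points, between 944 and 1460 bases after its coding sequence.

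The libraries held 35613283 to 36754725 counts on genes. Levels are given as CPM, a gene's counts relative to the library total after edgeR's TMM normalization. A gene was called at a Benjamini-Hochberg adjusted p under 0.05 in edgeR's quasi-likelihood test over all 15095 tested genes, and the fold change above 2 that the study used for its differentially expressed genes (DEGs) is given beside it. Of the 7 erythroid markers HBG1, HBG2, HBE1, HBZ, GATA1, KLF1 and EPOR, all were expressed in every library, and HBG1 and HBG2 are near-identical copies. Their summed level was 4794 to 6225 CPM in the control group and 3471 to 4241 CPM in the hyperoside group, with 3 lower (HBG1, HBG2, HBE1) and 2 higher (KLF1, EPOR). Of 14 markers of T cells, B cells, monocytes, fibroblasts, epithelial cells and hepatocytes, 11 were tested. Among these, 3 were higher (CD3D, CD68, LYZ) and 1 was lower (COL1A1). The background for both marker sets was 22.1% higher and 23.2% lower over all tested genes. The 14 markers summed to 309 to 329 CPM in the control group and 372 to 404 CPM in the hyperoside group. The B cell marker MS4A1 had 0 counts in every control library. The part of these marker differences in the values of the iron genes was not tested.

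Of the 10 iron genes, 3 were higher in the hyperoside group (TFRC, SLC40A1 and NCOA4), 3 were lower (SLC11A2, FTL and ACO1), and 4 were not called (TFR2, STEAP3, FTH1 and IREB2). Over all tested genes 22.1% were called higher and 23.2% lower, so both shares lay near the background of this experiment. SLC40A1 was the only iron gene that also passed the fold change of 2, against 6.43% of all tested genes that did so upward, and no iron gene did so downward, against 3.76%. In 6 of the 10 the control and hyperoside values did not overlap, and over all tested genes this share was 54.4%. The 10 genes had a median of 0.14 on the log2 scale, beside 0.0032 over all tested genes. The changes that were called spread in both directions, from -0.36 for FTL to 1.12 for SLC40A1.

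**Figure D2:**
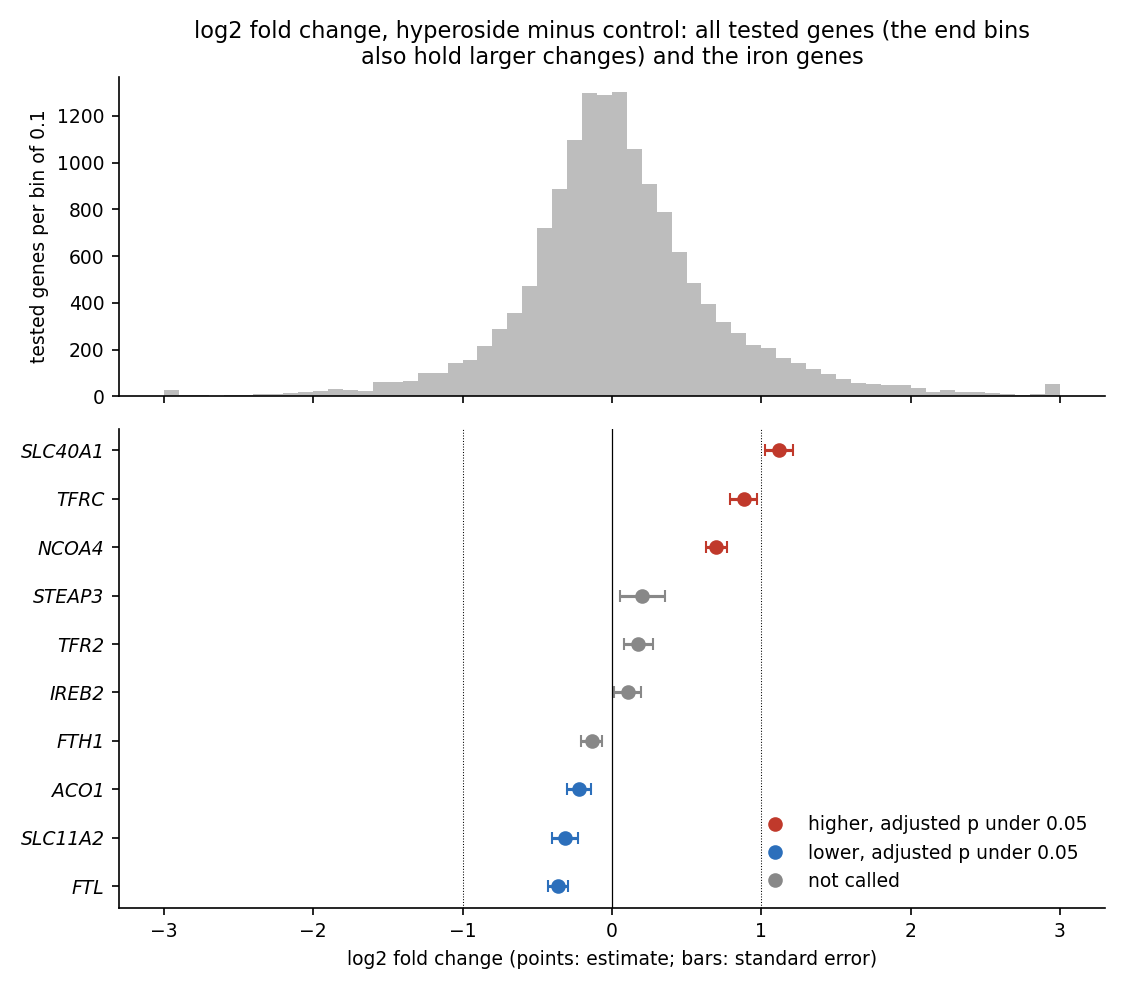
The upper panel counts the 15095 tested genes by log2 fold change, hyperoside minus control, in bins of 0.1. The lower panel shows the estimate and standard error for each of the 10 iron genes, with dotted lines at a 2-fold change; SLC40A1 (1.12), TFRC (0.88) and NCOA4 (0.70) lie to the right and FTL (-0.36), SLC11A2 (-0.31) and ACO1 (-0.22) to the left.

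Uptake was examined first. TFRC, the receptor for transferrin and the transcript with 4 matches to the element in its 3′ UTR, was called higher. It had 552.8, 673.2 and 586.0 CPM in control replicates 1, 2 and 3. Hyperoside replicates 1, 2 and 3 had 1090, 1274 and 979.9 CPM. Every hyperoside library lay above every control library, with hyperoside replicate 2 the highest. The means were 604.0 ± 62.2 CPM and 1115 ± 149 CPM (SD, n = 3 in either group), so TFRC reached 185% of its control level. On the log2 scale this was 0.88 ± 0.09 (standard error, edgeR adjusted p = 4.93e-07), and 9.77% of the tested genes had a larger log2 fold change. TFRC stayed below the 2-fold limit in this comparison. The paper reported a higher signal of FerroOrange, a probe for ferrous iron, in K562 cells treated with hyperoside. Whether TFRC mRNA followed the iron level of the cells was not tested.

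TFR2, a second transferrin receptor that in erythroid cells associates with the erythropoietin receptor, was not called. It had 94.2, 80.2 and 69.7 CPM in the control replicates and 90.1, 98.5 and 87.1 CPM in the hyperoside replicates. The groups overlapped, since control replicate 1 was above hyperoside replicates 1 and 3. Its log2 fold change was 0.18 (95% interval -0.03 to 0.38, edgeR adjusted p = 0.146). Without control replicate 1 the log2 fold change was 0.30 and TFR2 was called higher (edgeR adjusted p = 0.00189), so this call rested on 1 library. On the scale of the deposited FPKM values, which allow for gene length, TFRC stood 2.37 to 3.39 times above TFR2 in the control libraries and 4.53 to 5.21 times above it in the hyperoside libraries, without overlap between the groups.

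SLC11A2, which carries ferrous iron out of the endosome, moved the other way from TFRC. It had 77.1, 77.4 and 73.7 CPM in the control replicates and 66.1, 64.2 and 53.5 CPM in the hyperoside replicates. The hyperoside values were all below the control values, and hyperoside replicate 3 was the lowest. The mean fell from 76.1 ± 2.05 to 61.3 ± 6.79 CPM (SD, n = 3 per group), with -0.31 ± 0.09 on the log2 scale (standard error, edgeR adjusted p = 0.0076). Without hyperoside replicate 3 the log2 fold change was -0.21 and the edgeR adjusted p was 0.0774. The direction of the SLC11A2 transcripts that carry the element was not measured, since the counts are per gene. The TFRC to SLC11A2 ratio in FPKM was 7.74 to 9.38 in the control libraries and 17.8 to 21.4 in the hyperoside libraries.

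STEAP3, the endosomal ferrireductase of erythroid cells, had the lowest counts of the 10 genes. It had 14.1, 10.4 and 11.95 CPM in the control replicates and 11.6, 17.1 and 13.3 CPM in the hyperoside replicates, from 367 to 629 counts per library. The groups overlapped, and hyperoside replicate 2 alone was above every control value. The log2 fold change of 0.20 had a 95% interval of -0.11 to 0.52 (edgeR adjusted p = 0.289). Its exons overlap the antisense gene STEAP3-AS1, which had at most 2 counts in a library.

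**Figure D3:**
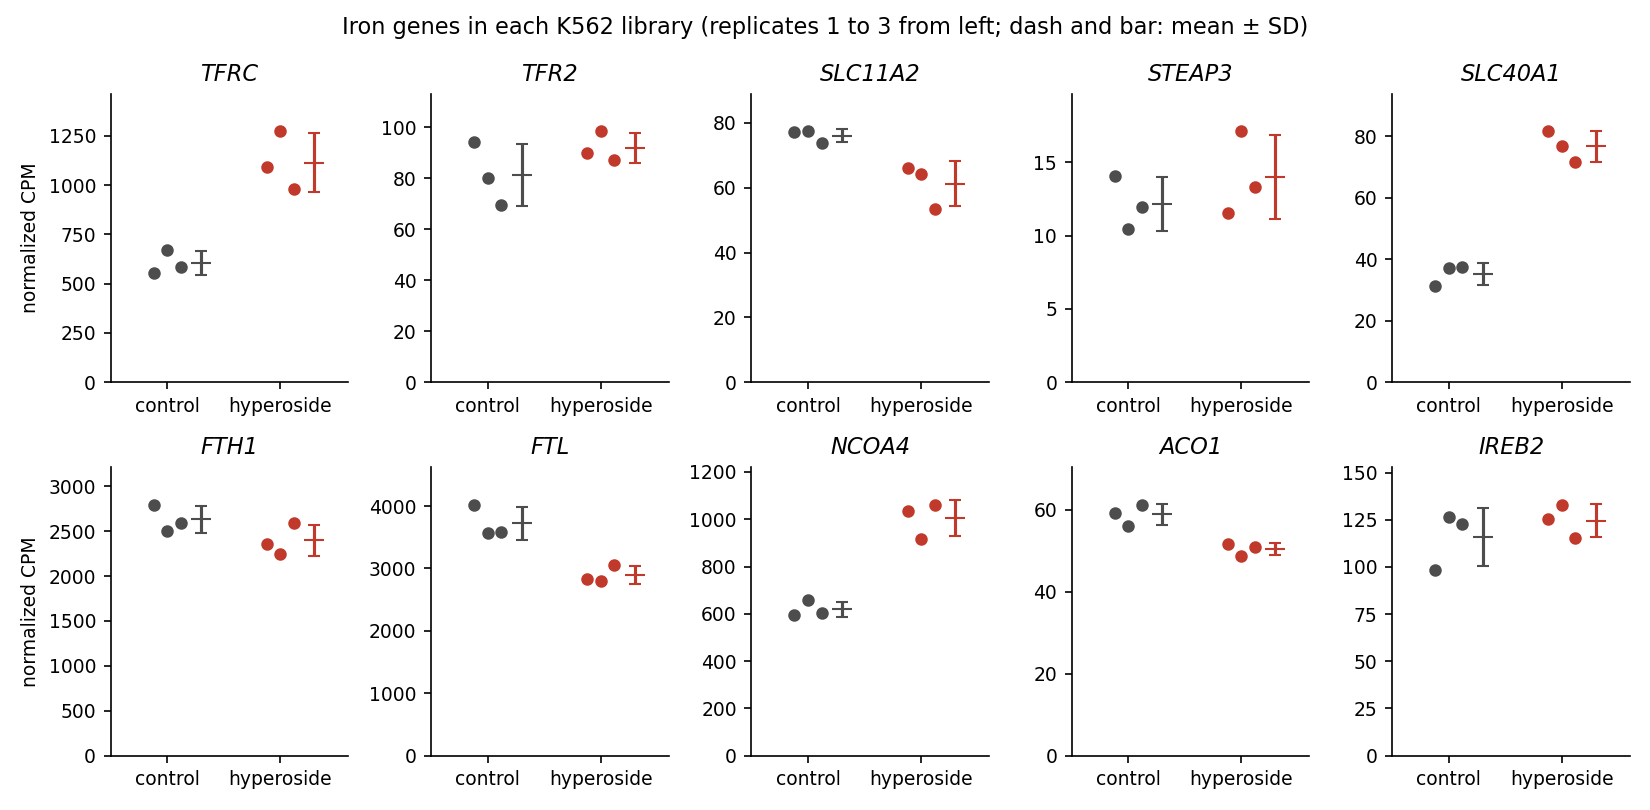
Normalized CPM of each iron gene in the 3 control and 3 hyperoside libraries, with axes from 0; points are libraries in the order of their replicate number, and the dash and bar beside them are the mean and SD. TFRC, SLC40A1 and NCOA4 separate upward, SLC11A2, FTL and ACO1 separate downward, and TFR2, STEAP3, FTH1 and IREB2 overlap.

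Storage was carried by the most abundant transcripts. FTL, the light chain of ferritin, had 4022, 3561 and 3583 CPM in the control replicates and 2825, 2806 and 3053 CPM in the hyperoside replicates. All hyperoside values were below all control values, and control replicate 1 was the highest. The mean fell from 3722 ± 260 to 2895 ± 138 CPM (SD, n = 3 per group), leaving 77.8% of the control level, or -0.36 ± 0.07 on the log2 scale (standard error, edgeR adjusted p = 2.67e-04). FTH1, the heavy chain whose ferroxidase activity loads the shell, had 2795, 2502 and 2594 CPM in the control replicates and 2355, 2247 and 2587 CPM in the hyperoside replicates. Hyperoside replicate 3 lay within the control range, so the groups overlapped. The log2 fold change of FTH1 was -0.13 (95% interval -0.28 to 0.01, edgeR adjusted p = 0.123). Without hyperoside replicate 3 it was -0.18 and FTH1 was called lower (edgeR adjusted p = 0.047).

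The balance of light to heavy chain was read within each library. The FTL to FTH1 ratio in FPKM was 1.91 to 1.99 in the control libraries and 1.63 to 1.72 in the hyperoside libraries, without overlap. Together the ferritin chains took 0.599% to 0.652% of all counts in the control libraries and 0.514% to 0.569% in the hyperoside libraries. Both genes have many processed copies in the genome, 25 annotated by name for FTH1 and 16 for FTL in GENCODE 29, and how reads that match several copies were counted was not stated, so their levels are uncertain. FTH1 exons also overlap BEST1 on the opposite strand, a gene with 225 to 363 counts per library against 82523 to 98282 for FTH1. The TFRC to FTH1 ratio in FPKM, set between an uptake and a storage transcript, was 0.0322 to 0.0438 in the control libraries and 0.0616 to 0.0922 in the hyperoside libraries.

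NCOA4, the receptor that delivers ferritin to the lysosome for breakdown, rose. It had 596.3, 656.5 and 604.9 CPM in the control replicates and 1037, 917.1 and 1062 CPM in the hyperoside replicates. The hyperoside values were all above the control values, with a wide gap between the groups. The mean went from 619 ± 32.6 to 1005 ± 77.4 CPM (SD, n = 3 per group), with 0.70 ± 0.07 on the log2 scale (standard error, edgeR adjusted p = 5.25e-07). In FPKM, NCOA4 stood at 0.0587 to 0.0722 of the FTH1 level in the control libraries and at 0.112 to 0.121 in the hyperoside libraries. Against the FTL level it stood at 0.0295 to 0.0367 in the control libraries and at 0.0651 to 0.0731 in the hyperoside libraries.

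Export was represented by SLC40A1, the gene of ferroportin, which is the iron exporter of the cell surface. SLC40A1 had 31.1, 37.2 and 37.4 CPM in the control replicates and 81.6, 76.7 and 71.5 CPM in the hyperoside replicates. Every hyperoside value was above every control value, and control replicate 1 was the lowest. The mean rose from 35.3 ± 3.57 to 76.6 ± 5.03 CPM (SD, n = 3 per group), or 217% of the control level, with 1.12 on the log2 scale (95% interval 0.92 to 1.31, edgeR adjusted p = 3.81e-08). Of all tested genes, 6.49% had a larger log2 fold change. Translation through the 5′ UTR element is not measured by these counts, and ferroportin protein was not measured here. The element was in 1 of 5 coding transcripts of SLC40A1. Which of these forms rose was not measured, since the counts are per gene.

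The regulators came last. ACO1, whose protein is cytosolic aconitase with an iron-sulfur cluster and IRP1 without it, had 59.3, 56.2 and 61.3 CPM in the control replicates and 51.7, 48.8 and 51.0 CPM in the hyperoside replicates. The groups did not overlap. Its log2 fold change was -0.22 (standard error 0.08, edgeR adjusted p = 0.0323). This call was lost in 10 of 15 alternatives, among them the replicate block (adjusted p = 0.075). IREB2, the gene of IRP2, had 98.1, 126.6 and 122.6 CPM in the control replicates and 125.3, 133.0 and 115.5 CPM in the hyperoside replicates. Control replicate 1 was the lowest of all libraries, and the groups overlapped. The log2 fold change of IREB2 was 0.11 (95% interval -0.09 to 0.30, edgeR adjusted p = 0.369). IRP activity is set mainly by the iron-sulfur cluster of IRP1 and the stability of IRP2, which transcript levels do not show.

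With limma-trend on log2(FPKM + 1), which uses no TMM normalization and adds 1 to each value, TFRC, SLC40A1 and NCOA4 were called higher. No iron gene was called lower, with limma-trend adjusted p-values from 0.0781 for FTL to 0.115 for ACO1. That fit called 3036 of 23241 genes higher and 2346 lower, against 3333 and 3508 of 15095 in the edgeR fit. The directions of all 10 genes were the same in each of the 15 alternatives run. IREB2 came down to 0.0025 on the log2 scale without control replicate 1, and STEAP3 to 0.032 without hyperoside replicate 2.

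Between genes, levels were compared per gene length with the deposited FPKM values. The lengths behind these values were 7395 bases for TFRC, 2980 for TFR2, 7978 for SLC11A2 and 7565 for ACO1. Lengths of the transcripts made in these cells were not measured, so the order and ratios between genes rest on the lengths used. In the control group FTL averaged 4195 ± 198 FPKM and FTH1 2147 ± 85.0 FPKM (SD, n = 3 each), ranks 9 and 26 among all genes of the table. NCOA4 followed with 139 ± 8.95 FPKM, then TFRC with 80.3 ± 9.24 and TFR2 with 26.8 ± 3.39. IREB2 (11.2 ± 1.71), SLC40A1 (9.62 ± 1.18) and SLC11A2 (9.37 ± 0.19) overlapped one another in their library values. ACO1 (7.65 ± 0.42) and STEAP3 (2.45 ± 0.32) were the lowest, each apart from its neighbor above. In the hyperoside group the order of the 5 most abundant genes was the same, from FTL at 3378 ± 138 FPKM to TFR2 at 31.4 ± 2.10 FPKM. SLC40A1, at 21.6 ± 1.59 FPKM, then stood above IREB2, at 12.4 ± 0.93 FPKM, without overlap. SLC11A2 (7.81 ± 0.92) and ACO1 (6.79 ± 0.22) overlapped, and STEAP3 was again the lowest at 2.92 ± 0.59 FPKM. TFRC rose from rank 717 to rank 311 of all genes and SLC40A1 from rank 5191 to rank 2702.

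**Figure D4:**
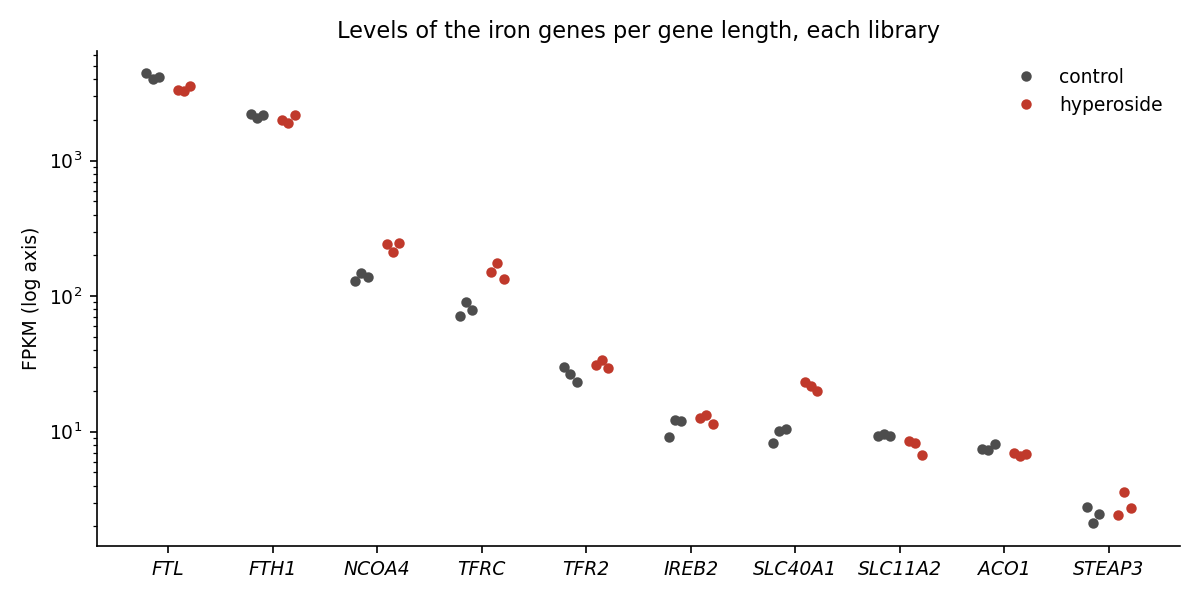
FPKM of the 10 iron genes in each library on a log axis, ordered by the control mean, with control libraries in gray and hyperoside libraries in red. FTL and FTH1 lie above the other 8 genes in all libraries, and SLC40A1 passes above IREB2 in the hyperoside libraries.

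Promoter windows of 250 bases before to 50 after the start were given by RefSeq on GRCh38.p14 for 8 of the 10 genes, in 13 windows. No window was given for TFR2 and FTH1. The core of the antioxidant response element, TGACNNNGC on either strand, to which NRF2 binds, was in 1 of the 13 windows, at NCOA4, and in 13.3% of all promoters. The hypoxia response core, ACGTG or GCGTG on either strand, was in 7 of 13 windows from TFRC, SLC11A2, FTL, ACO1 and IREB2, and in 48.4% of all promoters. A GATA motif, AGATAA or TGATAA on either strand, was in 1 window, of SLC11A2, and in 16.3% of all promoters. Letters outside these windows were not searched.

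Other genes around this pathway were read from lists of 66 genes, of which 58 were tested. Of these, 13 were higher and 18 lower, beside 22.1% higher and 23.2% lower over all tested genes, and their median on the log2 scale was -0.12. The share called higher was thus close to the background. Among 4 further transcripts described as carrying an iron-responsive element, 3 were higher, beside the background of 22.1%. EPAS1, the hypoxia-inducible factor HIF-2α, rose from 36.4 ± 2.11 to 95.6 ± 2.01 CPM (SD, n = 3 per group), or 1.39 ± 0.08 on the log2 scale (standard error, edgeR adjusted p = 5.57e-10). ALAS2, the rate-limiting enzyme of heme synthesis in erythroid cells, rose with a log2 fold change of 0.48, as did CDC42BPA with 0.48. CDC14A had a log2 fold change of -0.19 and was not called (adjusted p = 0.128). The element was found in the 5′ UTR of ALAS2 and, with the looser stem, of EPAS1, and in the 3′ UTR of CDC14A. It was not found in CDC42BPA.

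IRP turnover and control genes were 2 higher and 2 lower of 5, beside 22.1% and 23.2% of all tested genes. FBXL5, the iron-sensing subunit of the ligase that marks IRP2 for degradation, fell from 57.7 ± 0.41 to 37.9 ± 3.61 CPM (SD, n = 3 per group), or -0.61 ± 0.09 on the log2 scale (standard error, edgeR adjusted p = 2.59e-05). Its partner SKP1 also fell (-0.28), while the scaffold CUL1 rose (0.87) and so did HERC2 (0.45), a ubiquitin ligase of FBXL5 and NCOA4. RBX1 was not called, at -0.16. The cytosolic chaperones PCBP1, PCBP2 and GLRX3 had log2 fold changes of 0.13, 0.16 and 0.12 and none was called. BOLA2 had 1 count in all libraries together and has a near-identical copy, so it was not tested.

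Of the genes for uptake outside transferrin, SLC39A14 (ZIP14), which carries zinc and non-transferrin iron, fell from 72.6 ± 2.94 to 37.7 ± 0.99 CPM (SD, n = 3 each; log2 fold change -0.94, standard error 0.08, edgeR adjusted p = 5.86e-08). MCOLN1, a lysosomal cation channel that releases iron, rose with 0.94. STEAP1, STEAP2, CYBRD1 and SLC39A8 were not called, and STEAP4 was at 0 in every library. The ferroxidase HEPH, which works with ferroportin, rose with 0.34 (adjusted p = 5.92e-04), and CP and HEPHL1 had too few counts to be tested. The mitochondrial importer mitoferrin-1 (SLC25A37) rose from 653 ± 34.6 to 997 ± 37.1 CPM (SD, n = 3 each; log2 fold change 0.61, edgeR adjusted p = 1.01e-06), and SLC25A28 was not called, at 0.13.

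Of 14 genes for mitochondrial iron-sulfur cluster assembly, 6 were lower and 1 (IBA57) was higher, beside 23.2% and 22.1% of all tested genes, with a median of -0.21. The lower calls of LYRM4 and FDXR and the higher call of IBA57 were each lost when certain single libraries were left out. LYRM4 lost it without control replicate 1 or hyperoside replicate 1 or 3, and FDXR without hyperoside replicate 1. IBA57 lost it without control replicate 2 or 3 or hyperoside replicate 1 or 2. Among those that fell were GLRX5 (-0.70), which passes clusters on, and ISCU (-0.44), the scaffold on which they are built, and HSPA9 (-0.27), the chaperone of the transfer. Cytosolic cluster assembly had NUBP2 (-0.54) and CIAO2B (-0.35) lower and NDOR1 (0.71) and NUBP1 (0.32) higher among 9 genes. Both shares lay near the 22.1% higher and 23.2% lower of all tested genes. The call of NUBP1 was lost without control replicate 2 or 3 or hyperoside replicate 1 or 3 (lowest log2 fold change 0.25). Of 7 tested genes for heme breakdown and transport, 6 were lower, beside 23.2% of all tested genes, among them BLVRB (-0.44), SLC48A1 (-0.42) and HMOX2 (-0.42). The lower call of FLVCR1 was lost without control replicate 2 or hyperoside replicate 1 or 3. ABCG2, which exports porphyrins and many drugs, had raw counts of 170, 124 and 162 without hyperoside and of 14, 46 and 11 with it, so it fell, with -2.72 ± 0.39 on the log2 scale (standard error, edgeR adjusted p = 2.16e-05). Hyperoside replicate 2 was the highest of its group for ABCG2, and without it the value was -3.63 (edgeR adjusted p = 1.49e-06). In the hepcidin axis HFE, a partner of the transferrin receptors, rose from 1.29 ± 0.20 to 4.42 ± 0.68 CPM (SD, n = 3 each; log2 fold change 1.77, edgeR adjusted p = 1.90e-05). LTF, the gene of lactoferrin, rose with 1.67, and HJV, at 114 to 212 counts per library, fell (-0.68, edgeR adjusted p = 0.00842). HFE and LTF also had low counts, 38 to 186 and 31 to 204 per library. Both kept their calls in the 15 alternatives, but with log2 fold changes down to 0.58 for HFE and 0.75 for LTF. ABCG2 likewise kept its call, with values up to -0.65. Leaving out each library in turn gave 1.65 to 1.90 for HFE, 1.40 to 1.92 for LTF and -3.63 to -2.38 for ABCG2. The smallest changes thus came from other settings applied to all libraries.

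**Figure D5:**
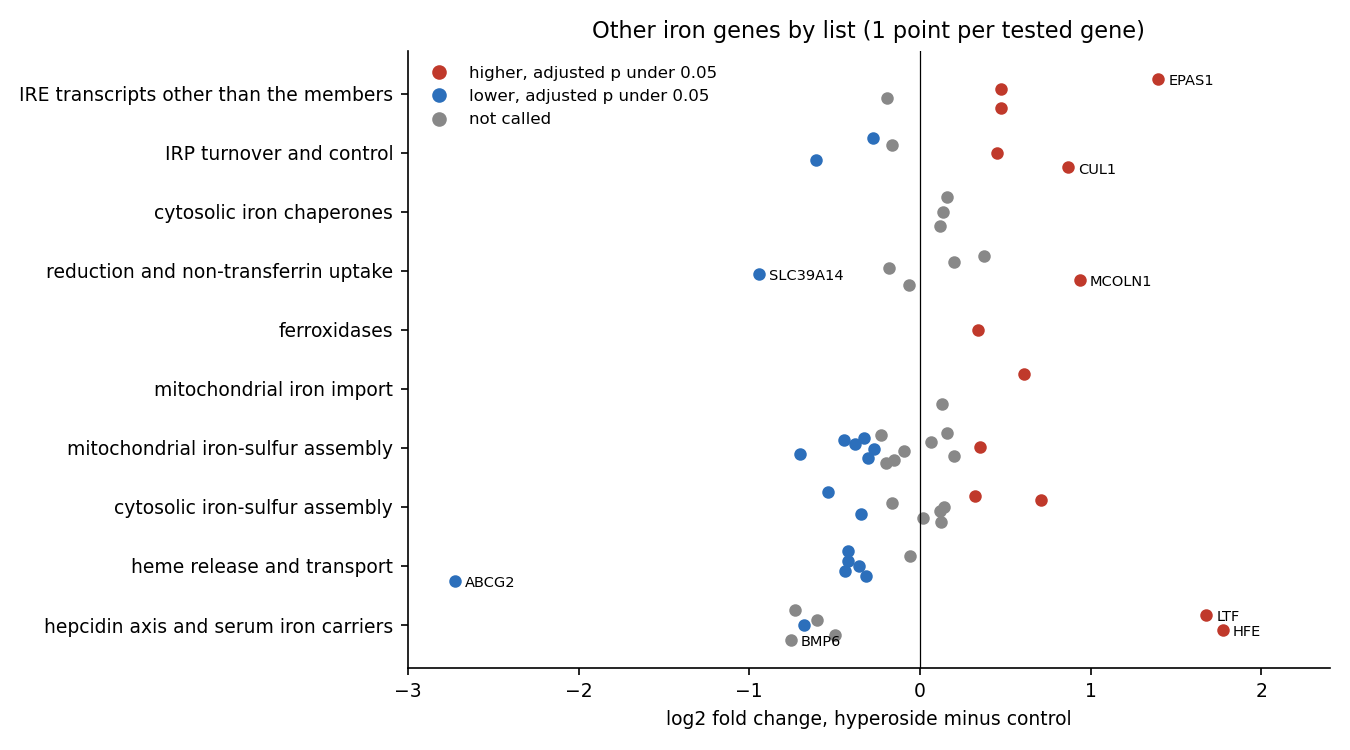
log2 fold change, hyperoside minus control, of the 58 tested genes in the other iron lists, 1 point per gene, red where called higher, blue where called lower and gray where not called. EPAS1, HFE and LTF lie beyond 1 to the right and ABCG2 beyond -1 to the left, and points of mitochondrial cluster assembly and heme transport lie mostly left of 0.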

How the data were processed

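Total RNA of 6 K562 libraries was sequenced on an Illumina instrument. The authors deposited 2 tables, gene counts that were not normalized and FPKM values in which the same counts are divided by gene length and library total. The submitters' processing notes name fastp, HISAT2 and HTSeq and the build hg38, and the annotation and use of strand are not given in the sources used here. Library totals were 35613283 to 36754725, and replicates of a group differed by more than counting error (chi-square per degree of freedom 6.57 to 25.0). Control replicate 1 stood furthest apart, with 21.9 against control replicate 2 and 25.0 against control replicate 3. Control replicates 2 and 3 gave 6.57, and pairs of hyperoside replicates gave 7.62 to 14.1. The TMM factor of control replicate 1 was also the lowest, at 0.957. Intervals are for the log2 fold change between the groups, and their width rests on the spread between these libraries. Groups and replicate numbers came from the sample titles, and the dose from the paper.

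Counts were fitted in R 4.3.3 with edgeR 4.0.16 (filterByExpr with minimum count 10 and total 15, TMM, glmQLFTest, condition as the only term), and p-values were adjusted by Benjamini-Hochberg over 15095 genes. Normalized CPM are relative to the TMM-scaled total. The standard error is the fold change's size divided by the root of F, and the 95% interval uses the test's degrees of freedom. DESeq2 1.42.0 and limma 3.58.1 on log2(FPKM + 1) or log2(FPKM + 0.1) served as alternatives. The fit was tested on simulated counts. Sequence searches and plots used Python 3.11.15, GENCODE 29 and matplotlib 3.10.9. The genes and lists were chosen with earlier results of these data known, so no list was tested as a set. Named beside the 10 genes were, per list, every gene called with a fold change above 2 and up to 3 others of smallest adjusted p; further names complete the short lists and were chosen after values were seen. Protein comparisons were not run, and 3 genes of the lists are not reported here.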

Additional observations from a re-analysis of the deposited data

How the results depend on the processing

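All 10 iron genes kept their direction in the 15 alternatives. For IREB2 and STEAP3 this means little, since their log2 fold changes went down to 0.0025 and 0.032 when 1 library was left out. TFRC, SLC40A1 and NCOA4 kept their calls in all of them, and STEAP3 and IREB2 were called in none. The number of iron genes called lower went from 3 to 0 with limma-trend on log2(FPKM + 1) and on log2(FPKM + 0.1). These fits called fewer genes lower in general, 2346 and 2395 of 23241, against 3508 of 15095 in the edgeR fit. There the log2 differences were -0.24 and -0.27 for SLC11A2, -0.31 in both for FTL, and -0.15 and -0.17 for ACO1, none past the threshold. ACO1 also lost its call with upper-quartile factors (-0.18), library totals (-0.17), no filter on low counts (-0.21) and the replicate block (-0.22). Leaving out each library in turn gave log2 fold changes of 0.073 to 0.30 for TFR2, -0.37 to -0.21 for SLC11A2, -0.18 to -0.086 for FTH1 and -0.26 to -0.20 for ACO1. ACO1 lost its call without control replicate 3 and without any 1 of the hyperoside replicates, SLC11A2 lost it without hyperoside replicate 3, FTH1 gained one without hyperoside replicate 3 and TFR2 gained one without control replicate 1. The other iron genes called were put through the same alternatives after their values were seen, and none of the 31 changed direction. The causes were not tested. The labels give same-numbered libraries a shared number and nothing else. Correlations of their deviations from group means were -0.08, -0.03 and -0.03. With so few libraries per group these values cannot show whether same-numbered libraries were handled together. The replicate block gave 3 iron genes higher and 2 lower, and changed no call of theirs other than ACO1. Over all 15095 tested genes it called 3026 higher and 3103 lower. Other iron genes called were 11 to 18 higher and 15 to 20 lower over the alternatives. Over all genes the alternatives called 2700 to 3726 higher and 2346 to 3618 lower.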
